A study of Mus musculus with 6 samples.

Results

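Glutathione transferases join the tripeptide glutathione to reactive molecules, and 9 genes of this family were followed in mouse bone marrow B220+ cells: Gstm1, Gstm2, Gstm4 and Gstm5 of the mu class, Gstp1 of the pi class, Gsta4 of the alpha class, Gstt2 of the theta class, Gsto1 of the omega class and the membrane-bound Mgst1. They are the 9 rows, of 27761 in the deposited table, whose symbol is one of these names. The set was drawn up with their difference between the groups in view, so what follows on the members is a description and carries no test. B220 is the form of CD45 carried by B-lineage cells and by plasmacytoid dendritic cells. Messenger RNA was sequenced in 3 libraries of genotype WT and 3 of genotype PELI2 knockout, which the titles call CKO. All 6 came from bone marrow B220+ cells, with no treatment given. The strain, age and sex of the mice, the driver of the knockout and whether replicates are separate animals are not given in the sources used here, so a p-value here reflects the spread among these libraries alone, which may be technical.

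Cells use glutathione as their main small thiol. Peroxidases and transferases spend it on peroxides, lipid breakdown products and foreign electrophiles, glutathione reductase restores it with NADPH, and the pentose phosphate pathway supplies much of that NADPH. The transcription factor NRF2, released from KEAP1 under oxidative or electrophilic stress, drives many of these genes through antioxidant response elements.

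Values are FPKM (fragments scaled to transcript length and to library size), a level per transcript length, and differences are those of log2(FPKM + 1), PELI2 knockout minus WT, which shrink the differences of weakly expressed genes. The limma test took in the 12953 genes that reached 1 FPKM in 3 libraries or more. Of these, 3 rose and 0 fell at an adjusted p under 0.05. An unadjusted p under 0.05 was found for 1192 genes on the higher and 1150 on the lower side, 18.1% in all. The spacing of low values gave library totals between 16600000 and 18100000 reads. Peli2 itself had 2.03, 2.54 and 1.99 FPKM in the WT replicates, while those labelled PELI2 knockout had 3.07, 2.70 and 2.47 FPKM. The groups overlap, and FPKM of a whole gene cannot show a missing exon, so each direction below is that of the label. Cd79a and Pax5, which define B-lineage cells, stood at 636 ± 76.4 and 110 ± 12.2 FPKM in WT (mean ± SD, n = 3). Transcripts of other marrow cells were abundant too, with the neutrophil gene S100a8 at 2267 ± 387 FPKM and the globin gene Hba-a1 at 4703 ± 950 FPKM. In a bulk sample, fewer cells of a type and less RNA per cell cannot be told apart.

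The mu-class genes lie in 1 cluster on chromosome 3 (GRCm38, 107895821 to 108044894, 149 kb), and the stretches of DNA before 2 of them are shown because these 2 genes had the largest differences among the members. Both are RefSeq sequences of GRCm38.p6, stop short of the first base of the gene in the deposited table, and are read 5′ to 3′ on the strand of the gene. Capitals mark the AP-1 core TGANTCA and the antioxidant response element core TGACNNNGC, searched on both strands. These letters can overlap each other.
Gstm1, chr3:108017974-108018223, minus strand: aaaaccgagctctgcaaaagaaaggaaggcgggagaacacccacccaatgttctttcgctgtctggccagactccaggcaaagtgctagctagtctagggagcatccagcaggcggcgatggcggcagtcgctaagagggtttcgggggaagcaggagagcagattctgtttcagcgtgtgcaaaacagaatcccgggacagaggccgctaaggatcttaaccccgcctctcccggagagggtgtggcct
Gstm5, chr3:107895604-107895820, plus strand: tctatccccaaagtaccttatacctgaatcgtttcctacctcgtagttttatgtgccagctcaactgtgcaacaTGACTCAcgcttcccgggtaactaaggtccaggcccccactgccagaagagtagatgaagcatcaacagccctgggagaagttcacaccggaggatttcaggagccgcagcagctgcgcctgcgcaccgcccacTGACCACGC
Neither core is present before Gstm1, while Gstm5 has 1 of each. Of the 7 members with an entry in the RefSeq promoter table, 2 have the antioxidant response element core in the 250 bases before a start, Gstm5 and Mgst1, and 2 have the AP-1 core, Gstm5 and Gstp1. In Mgst1, 211 of these 250 bases, the core among them, lie inside the gene of the deposited table. Among all 32851 starts listed there, the first core is found before 10.2% and the second before 6.75%. These shares are per start, while a member with several starts was counted once. A match describes the letters of the window and is not a measured binding site.

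Among the 9 members, 5 were higher in the PELI2 knockout libraries with no overlap between the groups (Gstm1, Gstm4, Gstm5, Gsta4 and Gsto1), 1 was lower (Gstt2), and 3 overlapped (Gstp1, Mgst1 and Gstm2). The plot of members by library shows these values. Of the 7 tested members 4 were higher and 1 lower without overlap, and over all tested genes 11.5% were higher and 14.3% lower. The expression filter was passed by 7 members, each of them above 1 FPKM in all 6 libraries, and Gsta4 and Gstm2 lay below it. At an adjusted p under 0.05 limma called 0 of the 7, where 0.0232% of all tested genes were called. Because the members were chosen on this contrast, nothing is read from these counts.

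**Figure D1:**
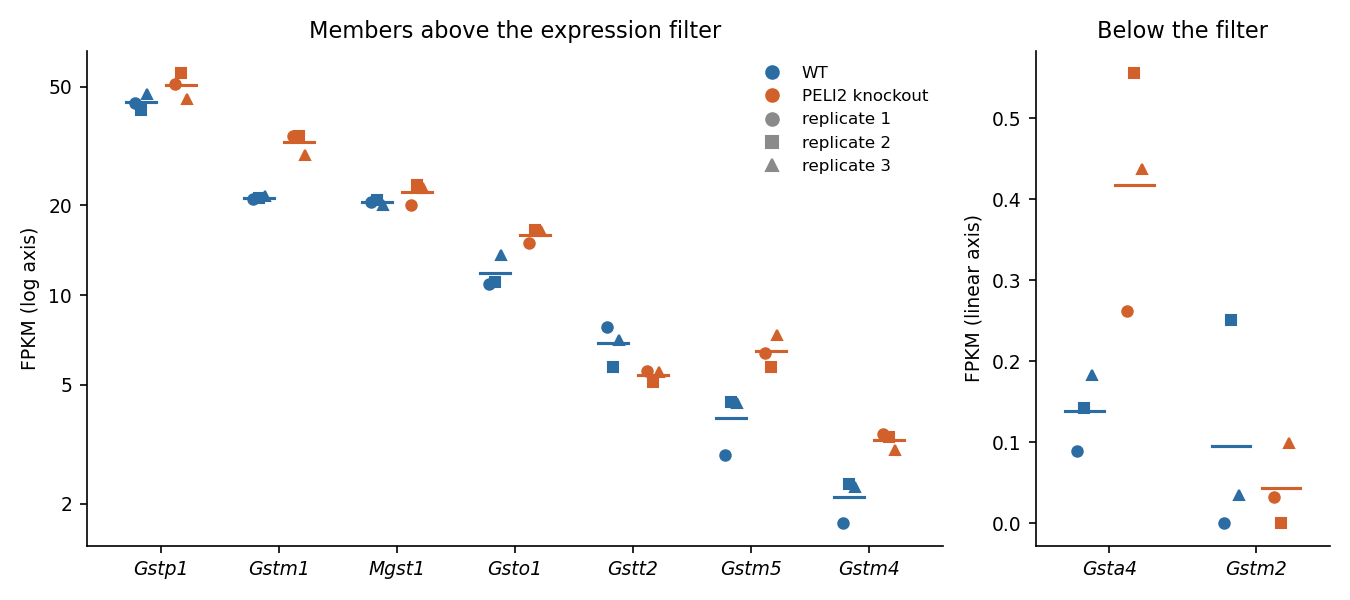
FPKM of each member in each library, with WT in blue and PELI2 knockout in orange, symbols for the replicate number and a bar at each group mean (n = 3). The left panel has a log axis and the right panel, with the 2 members below the filter, a linear one. The 3 WT points of Gstm1 lie close together around 21.2 FPKM, below all 3 knockout points.

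Gstm1 (ENSMUSG00000058135, chromosome 3, 108012255 to 108017973, minus strand) encodes a cytosolic transferase of broad substrate range. It stood at 21.0, 21.2 and 21.5 FPKM in WT replicates 1 to 3 and at 34.3, 34.0 and 29.4 FPKM in PELI2 knockout replicates 1 to 3. The WT libraries are nearly equal, with a coefficient of variation of 1.17%, while that of the knockout libraries was 8.41%, replicate 3 being the lowest. The gap between the highest WT and the lowest knockout library was 7.94 FPKM. Means were 21.2 ± 0.25 and 32.5 ± 2.74 FPKM, a ratio of 1.54 and a difference of 0.59 on the log2(FPKM + 1) scale (SE 0.07). In WT its mean exceeded that of 78.1% of tested genes, and in the knockout libraries that of 86.5%.

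Gstm5 (ENSMUSG00000004032, chromosome 3, 107895821 to 107898686, plus strand) had the largest difference of the members that passed the filter. Its values were 2.91, 4.38 and 4.36 FPKM in WT libraries and 6.39, 5.74 and 7.32 FPKM in the knockout ones. WT replicate 1 stands well below the other two, and all knockout libraries lie above all WT libraries. The ratio of the means was 1.67 and the log2 difference 0.63 (SE 0.14). Gstm4 (ENSMUSG00000027890, chromosome 3, 108040408 to 108044894, minus strand), at the other end of the cluster, had 1.72, 2.33 and 2.28 FPKM in WT libraries and 3.43, 3.33 and 3.02 FPKM in the knockout ones. Here too WT replicate 1 is the lowest library and the groups are apart, with a ratio of 1.55 and a log2 difference of 0.46 (SE 0.10). Gstm2 (ENSMUSG00000040562, chromosome 3, 107981702 to 107986453, minus strand) was barely detected. It was listed at 0, 0.251 and 0.0345 FPKM in WT and at 0.0329, 0 and 0.0989 FPKM in the knockout libraries, which is 0 to 4 reads per library. At these depths 3 reads on its longest transcript of 1064 bases, the most that a count of 0 allows, correspond to 0.156 to 0.170 FPKM, so no difference was detectable.

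Within the mu class the share of Gstm1 was similar in both groups. The 4 genes summed to 27.3 ± 1.47 FPKM in WT libraries and 42.3 ± 2.23 FPKM in the knockout ones, and Gstm1 supplied 77.8% ± 3.56 and 76.8% ± 2.68 of that sum (SD, n = 3 each). These shares differ by less than the spread between replicates. Gstm7, a mu-class gene between Gstm5 and Gstm2 that is no member, stood at 0.423 to 0.827 FPKM in WT and 0.655 to 0.733 FPKM in the knockout libraries, below the filter.

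Most tested genes flanking the cluster had a lower mean in the knockout libraries. Within 200 kb on either side 7 other genes were tested, of which 1 had a higher mean, and their log2 differences ran from -0.30 to 0.09 with a median of -0.14. The nearest tested gene, Ampd2, an AMP deaminase, had the highest value at 0.09 (SE 0.05) with groups apart, and Amigo1, a cell adhesion protein, the lowest at -0.30 (SE 0.15). None of the 7 passed, and 0 had an unadjusted p under 0.05 (limma), against 18.1% of all tested genes. Groups did not overlap in 5 of them, against 25.8% of all tested genes.

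**Figure D2:**
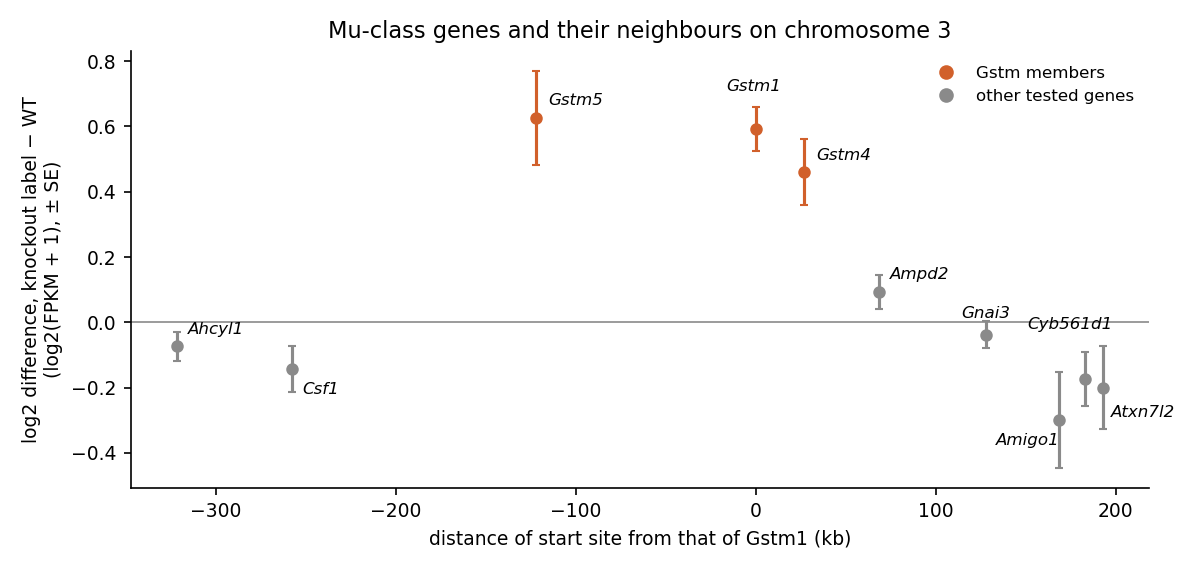
Log2 difference between the groups (PELI2 knockout minus WT, log2(FPKM + 1), ± SE from limma) of each tested gene in and around the mu-class cluster, against the distance of its start site from that of Gstm1 in kb, on chromosome 3. The 3 mu-class members that passed the filter, in orange, lie between 0.46 and 0.63, and the 7 other genes, in grey, between -0.30 and 0.09.

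Gstp1 (ENSMUSG00000060803, chromosome 19, 4035407 to 4037921, minus strand), the pi-class transferase, was the most abundant member in every library. It stood at 44.1, 41.7 and 47.3 FPKM in WT and at 50.9, 55.4 and 45.3 FPKM in the knockout libraries. Knockout replicate 3 lies below WT replicate 3, so the groups overlap, and the log2 difference was 0.18 (SE 0.08). It was 0.11 without knockout replicate 2 or with libraries scaled to a common FPKM total. Its neighbour Gstp2 was listed at 0 in 3 libraries and at up to 0.288 FPKM in the others, and Gstp3 stood at 2.35 ± 0.32 FPKM in WT libraries and 2.81 ± 0.35 FPKM in the knockout ones (limma adjusted p = 0.405).

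Gsto1 (ENSMUSG00000025068, chromosome 19, 47854970 to 47864790, plus strand), an omega-class enzyme that also reduces dehydroascorbate, had 10.9, 11.0 and 13.7 FPKM in WT libraries and 14.9, 16.5 and 16.4 FPKM in the knockout ones. WT replicate 3 comes within 1.22 FPKM of the lowest knockout library, and the groups do not overlap. The ratio was 1.34 and the log2 difference 0.40 (SE 0.09). Gsto2, which begins directly downstream of Gsto1, stood between 0.151 and 0.747 FPKM in the 6 libraries.

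Mgst1 (ENSMUSG00000008540, chromosome 6, 138140316 to 138156755, plus strand) encodes a transferase of the endoplasmic reticulum and outer mitochondrial membrane that also reduces lipid peroxides. Its level was almost that of Gstm1 in WT, at 20.6, 20.8 and 20.1 FPKM, and in the knockout libraries it was 20.1, 23.3 and 22.9 FPKM. Knockout replicate 1 is level with the lowest WT library, and the log2 difference was 0.10 (SE 0.06), or 0.06 without knockout replicate 2 and 0.03 with a common FPKM total. The ratio of Gstm1 to Mgst1 within a library was 1.02 to 1.07 in WT and 1.29 to 1.71 in the knockout libraries.

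Gstt2 (ENSMUSG00000033318, chromosome 10, 75831114 to 75837424, minus strand), of the theta class, was the 1 member whose knockout libraries all lay below the WT libraries. It stood at 7.82, 5.75 and 7.07 FPKM in WT and at 5.55, 5.11 and 5.54 FPKM in the knockout libraries. WT replicate 2 is only 0.194 FPKM above the highest knockout library. The ratio was 0.785 and the log2 difference -0.29 (SE 0.10).

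Gsta4 (ENSMUSG00000032348, chromosome 9, 78182774 to 78209349, plus strand), an alpha-class enzyme known for conjugating the lipid peroxidation product hydroxynonenal, lay far below the filter. Its 3 WT libraries gave 0.0892, 0.143 and 0.183 FPKM and the knockout libraries 0.262, 0.556 and 0.437 FPKM. The groups do not overlap, but over its 2 annotated transcripts this is 1 to 9 reads per library, and no ratio is given.

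In WT the order of the levels was Gstp1, Gstm1, Mgst1, Gsto1, Gstt2, Gstm5, Gstm4, Gsta4 and Gstm2. Neighbours in that order did not overlap over the 3 libraries, apart from Gsta4 and Gstm2. The knockout libraries gave the same order, with 1 exchange. Gstm5, at 5.74 to 7.32 FPKM, stood above Gstt2, at 5.11 to 5.55 FPKM, where in WT Gstt2 had been above Gstm5 in each library. Summed over the 9 genes, the level was 111 ± 4.70 FPKM in WT libraries and 137 ± 6.86 FPKM in the knockout ones. Gstm1 made up 19.1% ± 0.64 of it in WT and 23.8% ± 1.35 in the knockout libraries, and Gstp1 39.9% ± 1.01 and 36.9% ± 1.91.

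Near-identical sequences limit some of these values, since a 50-base read that fits several transcripts has to be divided among them. In GENCODE M21, 18.9% of the 1520 different 50-base windows in Gstm1 transcripts also occur in another gene. Of these, 215 occur in the pseudogene Gstm2-ps1 and 124 in Gstm3, which has no row among those within 200 kb of the cluster. Gstm2-ps1 stood at 0.970 ± 0.20 FPKM in WT libraries and 0.938 ± 0.32 FPKM in the knockout ones. These values rest on the same division of reads, and the part of such reads in the Gstm1 difference was not tested. The share was 33.7% for Gstp1, or 586 windows. All of them also occur in Gstp2 and 352 in the pseudogene Gstp-ps, which stood at 6.46 ± 0.68 FPKM in WT libraries and 6.74 ± 0.89 FPKM in the knockout ones, with overlapping groups. For Gstm5 it was 9.44%, all of it with the overlapping antisense gene 4933431E20Rik, which stood at 0.109 ± 0.037 and 0.168 ± 0.018 FPKM. Strand use in counting is not stated, so reads of that overlap cannot be told apart. It was 5.65% for Gstm2, 0.636% for Gstt2 and 0% for Gstm4, Gsta4, Gsto1 and Mgst1.

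Most expressed genes of glutathione and thioredoxin redox chemistry were higher in the PELI2 knockout libraries, though 0 of them passed over all genes. Of 32 genes on this list 29 were tested, 26 had a higher mean, and the median log2 difference was 0.24, against -0.01 over all 12953 tested genes, of which 46.4% had a higher mean. The list median was 0.16 without WT replicate 1, and -0.0040 with the mean of 20 granulocyte genes in each library as a covariate. With an unadjusted p under 0.05 there were 14 on the higher side and 1 on the lower (limma), against 9.20% and 8.88% of all tested genes. This list and those that follow were drawn up with earlier results of these data known. Their counts and medians are therefore a description and carry no test. The 4 redox genes with the smallest p were G6pdx, Gpx3, Pgd and Prdx5. G6pdx, the enzyme that opens the pentose phosphate pathway and makes NADPH, stood at 30.1, 33.3 and 33.0 FPKM in WT and at 52.8, 56.1 and 44.8 FPKM in the knockout libraries. Like Gstm1 it had its lowest knockout value in replicate 3, and its log2 difference was 0.65 (SE 0.09, limma adjusted p = 0.0908). Without PELI2 knockout replicate 3 it was 0.74 and passed (limma adjusted p = 0.0392), the 1 gene of the list to do so there.

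Gpx3, a secreted glutathione peroxidase, stood at 1.90 ± 0.21 FPKM in WT libraries and 3.36 ± 0.48 FPKM in the knockout ones (limma adjusted p = 0.142). Pgd, which makes NADPH at a later step of the same pathway, stood at 28.3 ± 2.19 and 35.0 ± 0.41 FPKM, and the peroxiredoxin Prdx5 at 72.2 ± 4.72 and 88.9 ± 3.8 FPKM (limma adjusted p = 0.142 for each). Groups did not overlap in these 3 genes. On the lower side, Txnrd3, a thioredoxin and glutathione reductase, stood at 5.47 ± 1.25 and 3.84 ± 0.25 FPKM (limma adjusted p = 0.219). It was named after its values were seen.

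Genes that supply glutathione, its amino acids and its export mostly had a higher mean in the knockout libraries. Of 22 listed 13 were tested, 11 had a higher mean with a list median of 0.17, and 0 passed. With the granulocyte covariate the median was 0.027. With an unadjusted p under 0.05 there were 5 on the higher side and 2, Gclc and Slc1a5, on the lower (limma), against 9.20% and 8.88% of all tested genes. As for the redox list, these counts are a description. The 4 with the smallest p were Abcc1 and Abcc4, exporters of glutathione conjugates and other anions, Slc3a2, the heavy chain of several amino acid transporters, and Chac1, which breaks glutathione down. Abcc1 stood at 3.32 ± 0.36 and 4.08 ± 0.09 FPKM, Abcc4 at 4.80 ± 0.32 and 5.52 ± 0.16 FPKM, Slc3a2 at 41.5 ± 4.28 and 49.8 ± 4.29 FPKM, and Chac1 at 0.782 ± 0.029 and 1.52 ± 0.64 FPKM (limma adjusted p = 0.218 to 0.252). Chac1, 1 of the 5 on the higher side, reached 1 FPKM in the knockout libraries alone. It was therefore tested only through the group where it is high, and nothing is read from its p. The subunits of the enzyme that commits cysteine to glutathione had differences of opposite sign. The catalytic Gclc stood at 62.9 ± 5.20 and 54.5 ± 3.79 FPKM and the modifier Gclm at 10.6 ± 1.75 and 13.9 ± 2.38 FPKM (limma adjusted p = 0.256 and 0.271). These and the glutamine transporter Slc1a5, at 175 ± 24.4 and 145 ± 10.4 FPKM (limma adjusted p = 0.268), were named after their values were seen.

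The list of NRF2, its partners and targets had 28 genes, 24 of them tested. Of these 20 had a higher mean, the median was 0.18, and 0 passed. An unadjusted p under 0.05 was found for 10 on the higher side and 2, Gclc and the epoxide hydrolase Ephx1, on the lower (limma), where the shares of all tested genes were 9.20% and 8.88%. Here too the counts are a description, since the list was drawn up with earlier results known. The median was 0.093 without WT replicate 1, and -0.035 with the mean of 20 granulocyte genes in each library as a covariate. It shares 4 genes with the redox list, G6pdx among them, and 4 with the supply list. After G6pdx the smallest p belonged to Tkt, a transketolase of the pentose phosphate pathway, at 54.6 ± 5.24 and 68.9 ± 1.92 FPKM, Blvrb, a biliverdin and flavin reductase abundant in red cells, at 42.6 ± 1.55 and 53.0 ± 4.70 FPKM, and Ces2g, a carboxylesterase, at 9.55 ± 2.41 and 15.8 ± 2.54 FPKM (limma adjusted p = 0.150 to 0.178). NRF2 itself (Nfe2l2) stood at 18.7 ± 0.998 and 19.1 ± 1.28 FPKM and Keap1 at 12.96 ± 0.50 and 12.76 ± 0.15 FPKM. The target Nqo1 stood at 1.75 ± 0.67 and 2.71 ± 0.54 FPKM, and Hmox1 at 42.5 ± 13.1 and 46.8 ± 25.2 FPKM, all with overlapping groups. Ephx1 and these last 4 were named after their values were seen.

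Of the 25 other transferases and relatives listed 20 have a row in the table and 11 were tested, with 7 higher means and a median of 0.09. None passed, and an unadjusted p under 0.05 was found for 2 on the higher side and 0 on the lower (limma), beside 9.20% and 8.88% of all tested genes. The median was 0.045 without PELI2 knockout replicate 3, 0.056 without WT replicate 1 and -0.11 with the granulocyte covariate. The 2 are membrane proteins of the same superfamily as Mgst1. Alox5ap, the protein that hands arachidonic acid to 5-lipoxygenase for leukotriene synthesis, stood at 39.3 ± 4.90 and 57.3 ± 1.43 FPKM with groups apart (limma adjusted p = 0.138). Mgst3 stood at 16.5 ± 4.46 and 23.6 ± 3.72 FPKM with overlapping groups (limma adjusted p = 0.270). The other 9 were Ptges2 at 2.66 ± 0.08 and 3.03 ± 0.13 FPKM, Clic4 at 28.7 ± 1.27 and 30.7 ± 2.49 FPKM, Clic1 at 157 ± 9.05 and 149 ± 2.17 FPKM, and Hpgds, Gstk1, Gstz1, Gstcd, Mgst2 and the Gstp3 given above, whose group means all lay between 0.921 and 9.66 FPKM. Their limma adjusted p ran from 0.329 to 0.927.

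**Figure D3:**
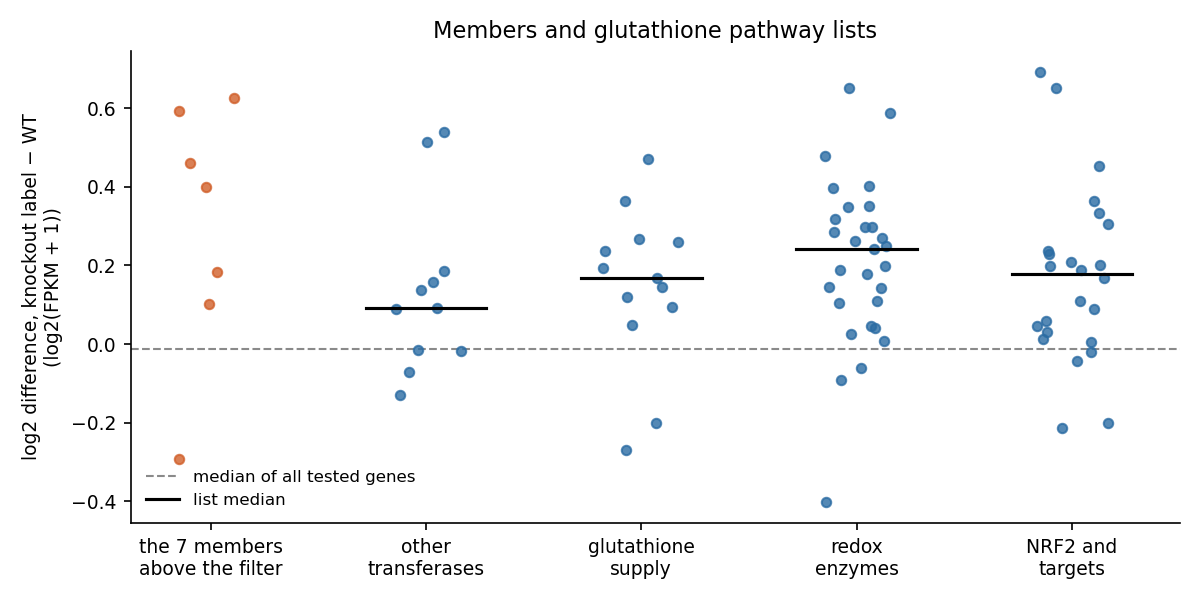
Log2 difference (PELI2 knockout minus WT, log2(FPKM + 1)) of the 7 members that passed the filter, in orange, and of each tested gene of the 4 lists, in blue. Black lines are list medians and the dashed line the median of all 12953 tested genes, at -0.01. The list medians lie at 0.09, 0.17, 0.24 and 0.18, from other transferases to NRF2.

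The 5 genes outside the members whose values followed Gstm1 most closely over the 6 libraries were Emilin1, G6pdx, Gpx3, Gpr84 and Col5a1. Likeness was the root mean square difference between log2(FPKM + 1) values centred on each gene, and it is a description over 6 libraries that also form the 2 groups. It was 0.053 for Emilin1, a glycoprotein of elastic fibres, 0.059 for G6pdx, 0.062 for Gpx3, 0.077 for Gpr84, a fatty acid receptor of myeloid cells, and 0.078 for Col5a1, a collagen chain, where the median tested gene was at 0.329. G6pdx and Gpx3 are the redox genes described above. Gpr84 and Col5a1 reached 1 FPKM in the knockout libraries alone, so they passed the filter only through the group where they are high. Gpr84 stood at 0.883, 0.767 and 0.840 FPKM in WT and at 1.54, 1.73 and 1.38 FPKM in the knockout libraries. Col5a1 stood at 0.698, 0.886 and 0.908 FPKM in WT and at 1.57, 1.71 and 1.38 FPKM in the knockout libraries. Nothing is read from the place of these genes. Emilin1 stood at 4.62, 4.79 and 5.44 FPKM in WT libraries and 8.21, 8.21 and 7.17 FPKM in the knockout ones. The closest member was Gstm4 at 0.112, with 31 genes outside the members closer, while Gstm5 was at 0.211 with 749 closer.

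Summed levels of several marker lists differed with the labels. Over all tested genes 46.4% had a higher mean in the knockout libraries. Of 20 granulocyte genes 19 did, and the summed level of the 20 was 8125 to 11257 FPKM in WT and 12730.2 to 15070.3 FPKM in the knockout libraries. These genes did not differ alike. The ratio of the means was 2.55 for Mpo, 2.47 for Elane, 1.42 for S100a8, 1.31 for Ltf and 1.11 for Ly6g, whose groups overlapped. Of 16 monocyte genes 15 were higher (sums 969 to 1268 and 1296 to 1587 FPKM), of 15 erythroid genes all 15 (9464 to 13776 and 14373 to 18253 FPKM), of 10 plasmacytoid dendritic cell genes 9 (1043 to 1089 and 1092 to 1269 FPKM) and of 4 tested stem and progenitor genes all 4 (45.9 to 63.8 and 65.6 to 79.0 FPKM). Of 16 B-lineage genes 15 were lower (2143 to 2537 and 1752 to 1830 FPKM). Sums overlapped for basophil, mast cell and eosinophil genes (1596 to 2156 and 1396 to 2451 FPKM, 4 of 13 higher), megakaryocyte genes (41.7 to 61.1 and 37.3 to 79.8 FPKM, 5 of 7 higher), stromal genes (43.2 to 67.9 and 43.2 to 64.4 FPKM, 2 of 5 higher) and plasma cell genes (683 to 754 and 718 to 905 FPKM, 5 of 8 higher). For T and NK cell genes they did not (84.4 to 105 and 109 to 127 FPKM, 8 of 11 higher), where groups were apart for Nkg7, at 30.2 ± 5.07 and 45.7 ± 3.47 FPKM, and Cd4, at 20.05 ± 1.67 and 28.03 ± 3.63 FPKM, and overlapped for the other 9. Both were named after their values were seen. No marker was at 0 in all 6 libraries.

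Gstm1 and Gstm5 stood differently beside the granulocyte genes. The mean log2(FPKM + 1) of the 20 granulocyte genes was 6.79, 7.22 and 7.24 in WT and 7.53, 7.67 and 7.73 in the knockout libraries. On the same scale Gstm1 stood at 4.46, 4.47 and 4.49 in WT, level across these libraries, and at 5.14, 5.13 and 4.93 in the knockout libraries, lowest where the granulocyte mean is highest. Gstm5 stood at 1.97, 2.43 and 2.42 in WT and at 2.89, 2.75 and 3.06 in the knockout libraries, with its lowest and highest values of all 6 libraries where the granulocyte mean is lowest and highest. That mean blends genes with unlike orders of the libraries. Mpo stood at 70.5, 110 and 107 FPKM in WT and at 246, 265 and 226 FPKM in the knockout libraries. Among the latter it was lowest in replicate 3, like Gstm1. S100a8 was highest there, at 2902, 3169 and 3574 FPKM in the knockout libraries.

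**Figure D4:**
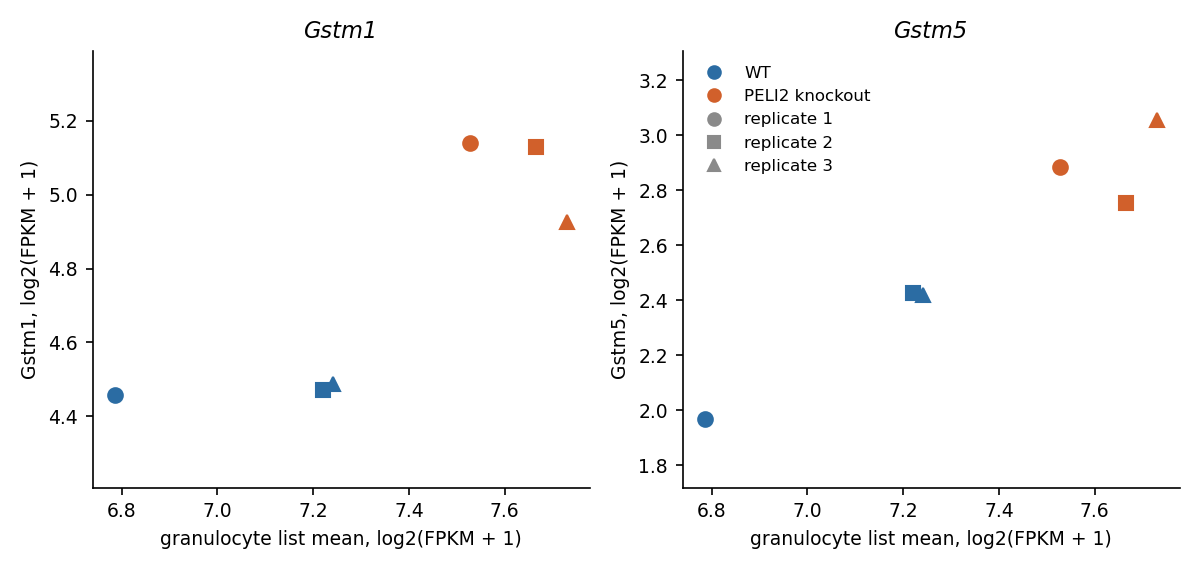
Level of Gstm1 (left) and Gstm5 (right), as log2(FPKM + 1), against the mean log2(FPKM + 1) of 20 granulocyte genes in the same library. Each point is 1 library, WT in blue and PELI2 knockout in orange, with symbols for the replicate number. Gstm1 is flat within WT, from 4.46 to 4.49, while Gstm5 runs from 1.97 to 2.43 there.

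With that granulocyte mean as a covariate in the fit, the log2 difference of Gstm1 was 0.64 (SE 0.14) in place of 0.59 (SE 0.07). For Gstm5 it was 0.09 (SE 0.18) in place of 0.63, for Gstm4 0.21 (SE 0.18) in place of 0.46, for Gsto1 0.17 (SE 0.16) in place of 0.40, and for Gstt2 -0.01 (SE 0.18) in place of -0.29. Gstp1 and Mgst1 had 0.21 (SE 0.18) and 0.03 (SE 0.13). The other genes most like Gstm1 were chosen for that likeness over these same libraries, so values near its own follow in part from the choice. They had 0.57 (SE 0.19) for G6pdx, 0.47 (SE 0.23) for Gpx3 and 0.50 (SE 0.16) for Emilin1. Gpr84 and Col5a1, which passed the filter only through the knockout libraries, had 0.56 (SE 0.21) and 0.34 (SE 0.21). The redox list median was -0.0040 in place of 0.24. No WT library lies within the range of the knockout libraries in this covariate, so it and the label can be told apart only through differences within the groups. The other marker lists were not fitted in this way, nor were single granulocyte genes. Their part in these differences was not tested.

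**Figure D5:**
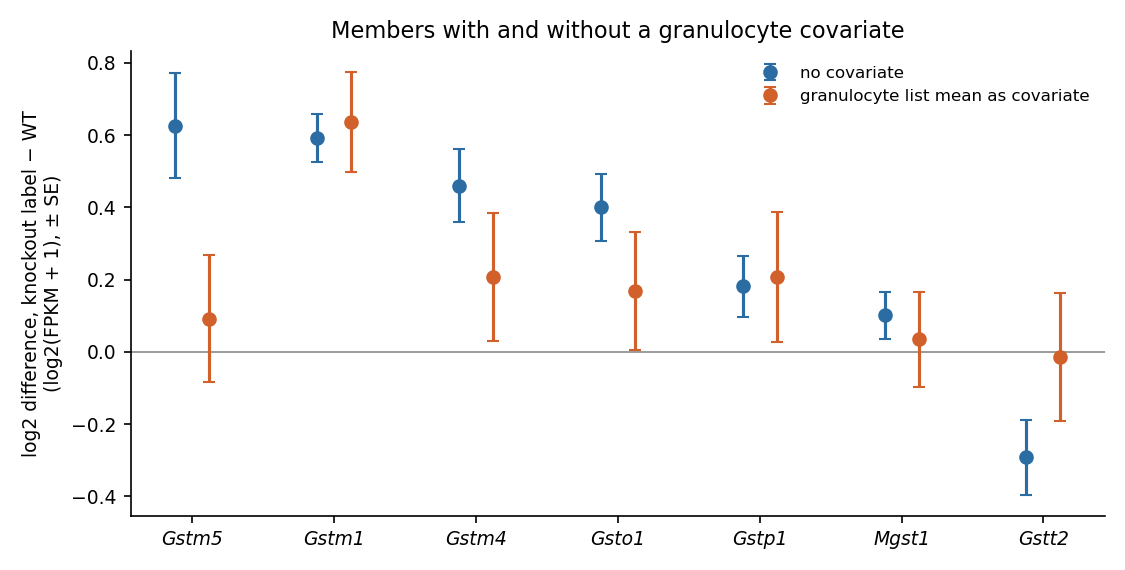
Log2 difference (PELI2 knockout minus WT, log2(FPKM + 1), ± SE from limma, n = 3 libraries per group) of the 7 members that passed the filter, without a covariate in blue and with the mean of 20 granulocyte genes as a covariate in orange. Gstm1 stands at 0.59 and 0.64, and Gstm5 at 0.63 and 0.09.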

How the data were processed

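The deposited table gives FPKM per gene for 6 RNA-seq libraries of mRNA taken up on oligo(dT) beads and read from 1 end over 50 bases, per the labels' protocols, as the authors made them. GRCm38.p6 is the build in the submitters' processing notes, which also list, without saying what each was used for, RSEM 1.2.12, HISAT2 2.0.4, DESeq2 1.4.5 and Bowtie2 2.2.5. No scaling across libraries is stated. Of the 27761 rows, 27696 have an ID in GENCODE M21.

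FPKM are not counts, so log2(FPKM + 1) was fitted with limma 3.58.1 in R 4.3.3 (eBayes with a trend, two-sided, Benjamini-Hochberg over the 12953 genes at 1 FPKM or more in at least 3 libraries). Groups came from the sample titles, with no block. On simulated data of 12953 genes, 68.4% of genes shifted by 0.5 and 91.6% of those shifted by 1 (log2) were recovered, with 5.54% false calls. Only genes above a set mean level were shifted, and the noise was independent between genes. Variation that many genes share between libraries is therefore not covered by these shares.

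Depth is the library total that made FPKM times length whole within 0.03 reads, for genes of 1 annotated transcript under 6 reads. It did so for 99.3% to 99.5% of 3752 to 4150 genes. Read numbers of members span their annotated transcript lengths and cover counting error only.

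Members and lists were chosen with earlier results of these data known. Named are all members, the other tested transferases, the 4 genes of smallest p per pathway list, the 5 genes most like Gstm1, Peli2 and defining markers. Alternatives were other pseudocounts, filters and scalings, no trend, a granulocyte covariate, a replicate block and each library left out. Figures used matplotlib 3.10.9.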

Additional observations from a re-analysis of the deposited data

How the results depend on the processing

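All 7 members that passed the filter kept the sign of their log2 difference under each alternative run, 16 in all (15 for Gstm4, which a filter of 5 FPKM removes). Gstm1 ranged from 0.52 (common FPKM total) to 0.66 (without PELI2 knockout replicate 3). Mgst1 ranged from 0.03 to 0.17, Gstp1 from 0.11 (common FPKM total) to 0.26, Gstm5 from 0.09 (granulocyte covariate) to 0.74, and Gstm4 reached 0.62 with a pseudocount of 0.1. Gstt2 ranged from -0.40 to -0.01 (granulocyte covariate). With that covariate the differences of Gstt2, Gstm5 and Mgst1 were smaller in size than their SE, so there a kept sign says little.

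The count of genes higher at an adjusted p under 0.05 was 3, and 1 with a filter of 5 FPKM or the granulocyte covariate. Genes lower numbered 0, and 2 without a trend in eBayes. Leaving out 1 library gave 2 to 16 genes higher, 16 without PELI2 knockout replicate 3, and 0 lower. For the redox and NRF2 lists it gave 0 to 1 gene past the threshold, G6pdx in both. It gave list medians of 0.093 to 0.23 (NRF2) and 0.16 to 0.32 (redox), both lowest without WT replicate 1, 0.14 to 0.21 (supply), and 0.045 to 0.13 (other transferases), lowest without PELI2 knockout replicate 3.

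With the granulocyte covariate list medians were -0.11 (other transferases), 0.027 (supply), -0.0040 (redox) and -0.035 (NRF2). With no filter they were 0.092 (supply) and 0.099 (NRF2). The covariate also turned the sign of Gstp3 (-0.11), Gstz1 (-0.045), Mgst3 (-0.41), Hpgds (-0.12), Clic1 (0.034), Clic4 (-0.0058) and Ces2g (-0.050). Leaving out 1 library gave -0.081 to 0.030 for Mgst2 and -0.077 to 0.021 for Gstcd, above 0 without WT replicate 2 (0.0033 and 0.0046), WT replicate 3 or PELI2 knockout replicate 2 (0.023 and 0.0085). The cause was not tested.

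Same-numbered libraries of the 2 groups deviated together with correlations over genes of 0.101, 0.036 and 0.090, each the highest of its library, but not all over 0.1. On that limit, which was a choice, the main fit had no block. Whether same-numbered libraries share more than a number was not tested. Single genes can still follow the number. The stromal gene Col1a1 stood at 6.09, 4.78 and 20.3 FPKM in WT and 4.37, 4.43 and 20.3 FPKM in the knockout libraries. It was named after its values were seen, and the cause was not tested. With the replicate block 4 genes were higher and 0 lower, and Gstm1 stayed at 0.59. Depth limits Gstm2 and Gsta4, at 0 to 4 and 1 to 9 reads.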

Other observations

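Genes around the other transferases were examined within 200 kb of each. Near Gstp1, 22 other genes were tested, with log2 differences from -0.25 to 0.26 (median -0.08), and near Gstt2 12, from -0.39 to 0.29 (median -0.13, 3 with a higher mean). At an unadjusted p under 0.05 there were 4 near Gstp1 and 5 near Gstt2, and 0 passed in either (limma). Over all tested genes the share was 18.1%. Gsto1 had 2 tested neighbours, at -0.04 and 0.01, and Gsta4 had 4, from 0.02 to 0.14.

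The theta-class relatives next to Gstt2 were near or below 1 FPKM. Mean levels in WT and PELI2 knockout libraries were 0.831 ± 0.30 and 0.813 ± 0.20 FPKM for Gstt1. Gstt3 stood at 0.306 ± 0.091 and 0.408 ± 0.116 FPKM, and Gstt4 at 0.058 ± 0.057 and 0.058 ± 0.059 FPKM, with overlapping groups for each. Ggt1, which starts the breakdown of extracellular glutathione, lay below the filter, with WT values of 0.414, 0.476 and 0.357 FPKM and knockout values of 1.23, 1.91 and 0.714 FPKM. Its groups did not overlap, and like Gstm1 and G6pdx it was lowest among the knockout libraries in replicate 3. It was named after its values were seen, and this likeness was not tested.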
